A study of Mus musculus with 6 samples.

Results

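Solute carriers are membrane proteins that move amino acids, sugars, metals, ions, nucleosides and metabolic intermediates across the plasma membrane and the membranes of organelles. The genes described here are 123 of the 347 gene symbols in the table that carry the name of a numbered solute carrier family. They were chosen by symbol and by their measured level, a mean over all 6 libraries of at least 5 CPM (counts scaled to a common library total). Another 216 such symbols lay under that level, and 8 genes above it (Slc2a1, Slc7a2, Slc7a11, Slc11a1, Slc11a2, Slc16a3, Slc40a1 and Slc1a2) were left out by name. The level limit used the mean over all libraries and no comparison between genotypes. The set itself, with the genes left out by name, was chosen with earlier results of these data known. The genes just inside the limit were Slc24a3 at 5.19 CPM, Slc45a4 at 5.29 CPM and Slc13a3 at 5.51 CPM, and those just outside were Slc52a2 at 4.94 CPM, Slc16a6 at 4.85 CPM and Slc29a1 at 4.69 CPM. In 119 of the 123 genes the mean was at least 5 CPM in each genotype taken alone; the exceptions were Slc43a3, Slc24a3, Slc45a4 and Slc13a3.

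RNA was sequenced from bone marrow-derived macrophages of 3 genotypes, each with 2 libraries and each labelled as C57BL/6. Ch25hKO cells lack Ch25h, the enzyme that makes 25-hydroxycholesterol, an oxysterol that restrains cholesterol synthesis and can activate the liver X receptors (LXRs). LXRdKO cells lack both LXR genes, Nr1h3 and Nr1h2, which encode sterol-sensing nuclear receptors, and WT cells are wild type. All 3 groups were grown in 10% M-CSF to day 7 and then received LPS, a bacterial membrane component that activates macrophages, at 100 ng/ml for 8 h, so that every value below belongs to stimulated cells. The comparisons ask how loss of the enzyme, or of the receptors, alters the transporter repertoire of the stimulated macrophage.

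A macrophage answering LPS changes its metabolism, and transporters set which nutrients reach which compartment. Plasma membrane carriers take up amino acids, nucleosides, lactate and metals. Carriers of the SLC25 family exchange metabolites across the inner mitochondrial membrane, those of the SLC35 family bring nucleotide sugars into the Golgi, and several others release the products of digestion from lysosomes. Metal carriers fall mainly into importers to the cytosol (the SLC39 or ZIP family for zinc, SLC31 for copper) and zinc exporters (the SLC30 or ZnT family).

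Libraries held between 41650513 and 45872964 counts, and the 123 genes took between 1.252% and 1.284% of them. The targeted genes matched the labels: Ch25h had 42 and 57 counts in Ch25hKO libraries against 3120 and 3076 in WT libraries. Nr1h3 had 42 and 41 counts in LXRdKO libraries against 710 and 756 in WT libraries, and Nr1h2 had 35 and 35 against 1292 and 1401. Of 10 macrophage markers 9 were in the table, and their summed level was 17070 to 17730 CPM in Ch25hKO, 20440 to 20620 CPM in LXRdKO and 17120 to 18580 CPM in WT libraries. Lists for other cells were far lower but differed between genotypes. Neutrophil markers summed to 52.2 to 55.1, 19.3 to 19.8 and 39.5 to 40.2 CPM in Ch25hKO, LXRdKO and WT libraries, in that order. Stromal markers summed to 31.5 to 34.1, 15.5 to 17.2 and 13.3 to 14.7 CPM, and dendritic cell markers to 13.95 to 14.72, 23.7 to 26.2 and 29.5 to 29.9 CPM. Erythroid and megakaryocyte markers summed to 40.6 to 41.4, 28.9 to 32.6 and 23.2 to 23.9 CPM, with the haemoglobin genes Hbb-b1 and Hba-a1 at 0 in every library. Mast cell markers lay between 49.5 and 69.8 CPM, and B cell and T cell lists each stayed under 3.6 CPM. The neutrophil, erythroid and mast cell sums rested mainly on 1 gene each. In Ch25hKO libraries these were S100a8 (48.1 and 50.4 CPM), Pf4 (39.9 and 40.9 CPM) and Hdc (48.6 and 51.5 CPM). Members of a list did not always move together. Camp, like S100a8, was highest in Ch25hKO, but Mpo and Ngp were highest in WT. Gp9 was lower in Ch25hKO (0.05 and 0.09 CPM) than in WT (0.32 and 0.41 CPM), opposite to Pf4. The part of these cells in the results was not tested, and in bulk RNA fewer cells of a type and less RNA per cell cannot be told apart.

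Levels were compared between genes only per kilobase of merged exons. The purine nucleoside carrier gene Slc28a2 led with 429 CPM per kilobase averaged over the 6 libraries. Next came the copper importer gene Slc31a1 at 191, the taurine carrier gene Slc6a6 at 188.6, Slc31a2, which encodes a copper carrier of late endosomes and lysosomes, at 186, and the lysosomal peptide and histidine carrier gene Slc15a3 at 146.9 CPM per kilobase. Slc7a8, a neutral amino acid exchanger gene, followed at 132 and the hexose carrier gene Slc2a6 at 121.4, while the median of all 123 genes was 5.51 CPM per kilobase. The order below Slc28a2 depended on genotype. For instance, Slc31a1 was above Slc6a6 in both Ch25hKO libraries and below it in both LXRdKO libraries. Slc31a2 was above both of these genes in the LXRdKO libraries and below both in the WT libraries. Of the Slc28a2 exon sequence, 35.4% of all 50-base stretches also occur in another annotated gene, so that its counts may depend on how shared reads were assigned.

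**Figure D1:**
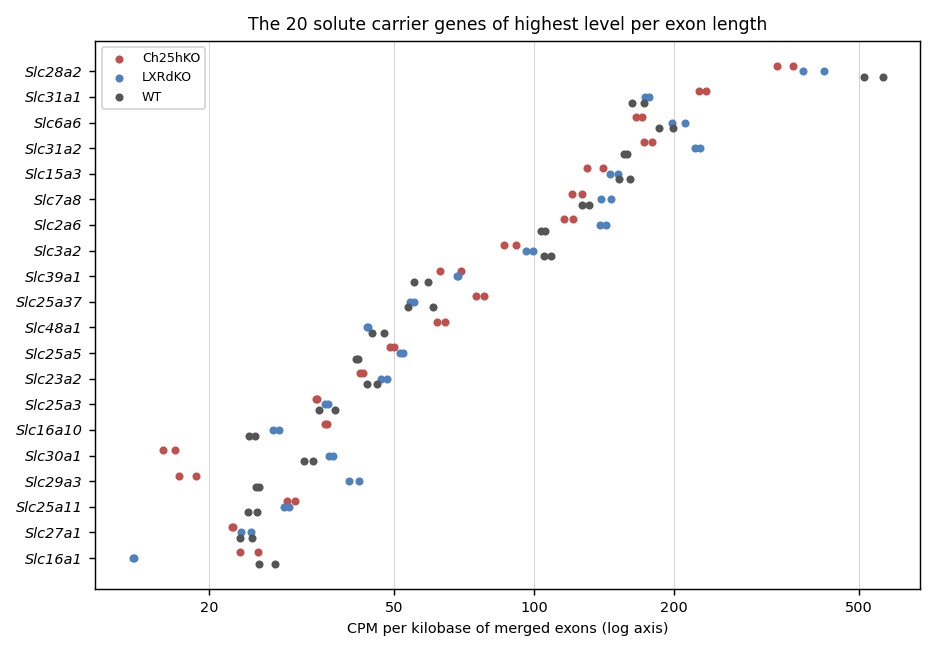
The 20 solute carrier genes of highest level, as TMM-scaled CPM per kilobase of merged exons on a log axis; each point is 1 library, with Ch25hKO, LXRdKO and WT in separate colours. Slc28a2 is highest in all 6 libraries, and its WT points lie above those of both knockouts.

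Differences were tested gene by gene with edgeR's quasi-likelihood test over all 12923 genes that passed the low-count filter, all 123 carriers among them. Genes with an adjusted p (Benjamini-Hochberg) under 0.05 were called, and CPM values from here on are scaled by TMM, a normalization for composition. In Ch25hKO against WT, 43 carriers were higher and 32 lower, which is 61% of the 123, where 39.3% of all tested genes and 48.3% of the tested genes with a mean of at least 5 CPM were called. In LXRdKO against WT, 37 were higher and 18 lower, or 44.7%, against 31.8% of all genes and 39.7% of those at 5 CPM or more. Among the 119 carriers at 5 CPM or more in every genotype, LXRdKO against WT gave 36 higher and 15 lower, or 42.9%. For Ch25hKO against WT the 119 gave 43 and 30, or 61.3%, and for LXRdKO against Ch25hKO 33 and 34, or 56.3%. Of all 123 carriers, 34 were higher and 35 lower in LXRdKO against Ch25hKO, or 56.1%, against 37.9% and 48.1%. The number higher in Ch25hKO was 28 without Ch25hKO replicate 1, and the number higher in LXRdKO than WT was 23 with DESeq2, 20 without LXRdKO replicate 1 and 22 without LXRdKO replicate 2.

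Most changes were small. The median log2 fold change of the 123 carriers was 0.03 in Ch25hKO and 0.03 in LXRdKO, against 0.02 and 0.03 for genes of at least 5 CPM. Among the called carriers, 10 of 43 increases and 10 of 32 decreases in Ch25hKO reached 0.5 on the log2 scale, and so did 7 of 37 increases and 7 of 18 decreases in LXRdKO. Of the called carriers, 46 of 75 in Ch25hKO, 29 of 55 in LXRdKO and 44 of 69 in LXRdKO against Ch25hKO stayed called under all 15 alternative analyses, and none of the called carriers changed sign under any of them. The WT libraries serve both comparisons, so the fold changes of the knockouts are not independent.

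**Figure D2:**
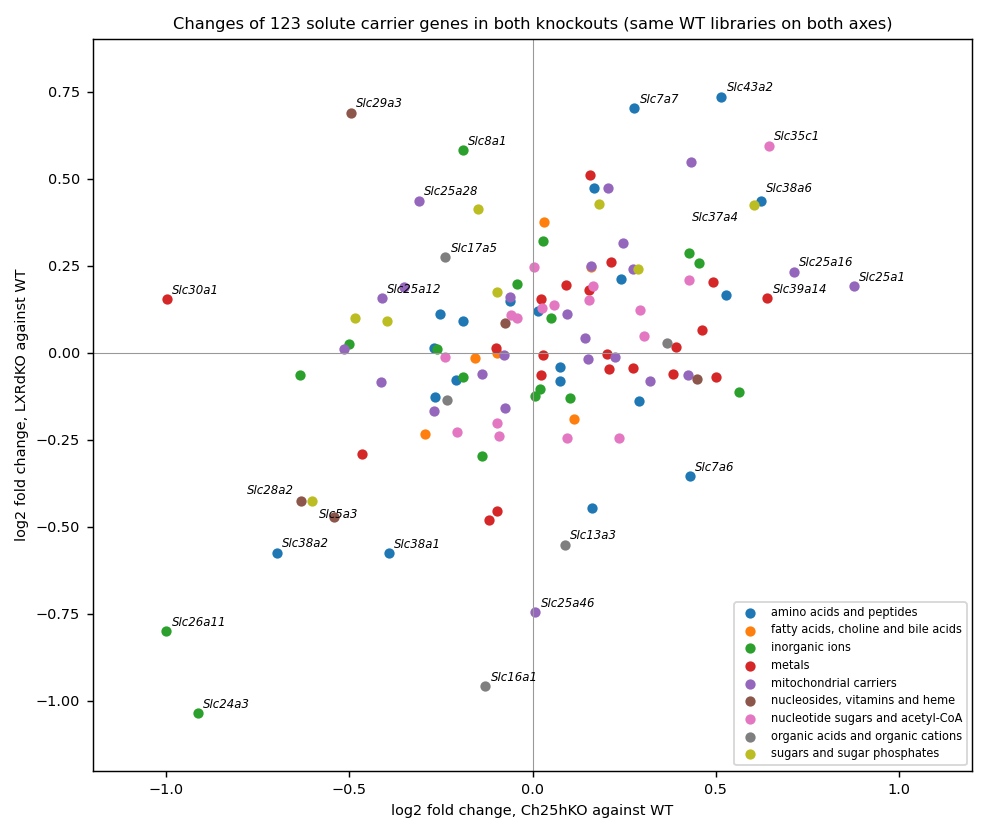
Log2 fold changes of the 123 carriers in Ch25hKO against WT (horizontal) and LXRdKO against WT (vertical), coloured by substrate class; both axes use the same WT libraries. Slc30a1 lies at the left edge near the horizontal line at -0.998 and 0.154, Slc16a1 near the bottom at -0.13 and -0.96, and Slc29a3 at the upper left at -0.50 and 0.69.

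Metal carriers changed most often upward in Ch25hKO cells, with the zinc exporter gene Slc30a1 and the zinc carrier gene Slc39a11 the called exceptions. Of 21 metal carriers, Ch25hKO had 12 higher and 2 lower than WT, and their median log2 fold change was 0.16 beside 0.02 over genes of at least 5 CPM, of which 25.2% were called higher and 23% lower (19.8% and 19.5% of all tested genes). Without Ch25hKO replicate 1 only 1 was lower. Set directly against Ch25hKO, LXRdKO cells had 2 metal carriers higher and 11 lower, with a median of -0.21 against 0.01 over genes of at least 5 CPM. That is 61.9% of the class called, beside 48.1% of those genes, of which 25.8% were higher and 22.2% lower. The same Ch25hKO libraries enter this comparison and the one of Ch25hKO against WT, so the 2 are not independent. LXRdKO against WT gave 7 higher and 2 lower, 42.9% called beside 39.7% of genes of at least 5 CPM (23% higher and 16.7% lower). The 7 became 2 with DESeq2 or with only the libraries compared, 3 with a filter of at least 5 CPM in 2 libraries, 4 without WT replicate 2, 3 without Ch25hKO replicate 2, and 2 without replicate 1 of Ch25hKO or without either LXRdKO library.

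Slc30a1 encodes the carrier that exports zinc across the plasma membrane. It had 83.7 and 88.7 CPM in Ch25hKO libraries, 193.4 and 189.8 CPM in LXRdKO libraries and 176.0 and 168.3 CPM in WT libraries. The Ch25hKO level was 0.50 times that of WT, and the 3 groups did not overlap. Its log2 fold change was -0.998 ± 0.05 (SE) in Ch25hKO (adjusted p = 1.75e-10), the lowest p among the decreases of the 123 carriers, and 1.153 ± 0.05 in LXRdKO against Ch25hKO (adjusted p = 1.23e-11). In LXRdKO against WT it was 0.15 (adjusted p = 0.0301), and that call was lost on leaving out any library but WT replicate 1 (adjusted p 0.0536 to 0.181), as well as under 4 other alternatives. The gene lies on chromosome 1 (191906767 to 191913247, plus strand, GRCm38). Its promoter window in RefSeq (GRCm38.p6, chr1:191906531-191906830, plus strand, 250 bases before the start and 50 from it on) is printed because this decrease was the clearest of the set; capitals mark TGCACNC or TGCGCNC on the minus strand, the core letters of the metal response element. This motif was added after the values were seen, and 40.1% of the genes with a window and at least 5 CPM hold it on one of the strands.
Slc30a1: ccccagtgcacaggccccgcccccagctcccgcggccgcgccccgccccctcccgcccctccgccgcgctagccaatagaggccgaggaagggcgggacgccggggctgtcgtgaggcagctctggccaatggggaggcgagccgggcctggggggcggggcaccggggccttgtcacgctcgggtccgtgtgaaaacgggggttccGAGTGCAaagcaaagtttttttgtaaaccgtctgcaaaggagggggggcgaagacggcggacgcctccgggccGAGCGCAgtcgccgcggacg

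Several importers were higher in Ch25hKO. Slc39a14, which brings zinc, iron and manganese into the cell, had 160.3 and 162.1 CPM in Ch25hKO libraries, 112.8 and 117.9 CPM in LXRdKO libraries and 104.5 and 102.4 CPM in WT libraries. Both Ch25hKO values stood above the other 4, at a log2 fold change of 0.64 ± 0.05 against WT (adjusted p = 2.52e-08) and with LXRdKO at -0.48 ± 0.05 against Ch25hKO (adjusted p = 5.05e-07). The copper importer gene Slc31a1 had 971.9 and 1002 CPM in Ch25hKO, 757.7 and 741.5 CPM in LXRdKO and 738.1 and 694.7 CPM in WT libraries, a log2 fold change of 0.46 ± 0.06 in Ch25hKO (adjusted p = 3.23e-06) and 0.07 in LXRdKO (adjusted p = 0.397). Also higher in Ch25hKO were the zinc importer gene Slc39a10 (0.38), Slc39a13 (0.39), the Golgi zinc carrier gene Slc30a6 (0.49) and the magnesium carrier gene Slc41a1 (0.50), each called under all alternatives. Slc39a7, a zinc carrier gene of the endoplasmic reticulum, rose too (0.28), but 80.7% of its exon sequence overlaps another annotated gene and its counts are uncertain.

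Slc31a2, by contrast, stood highest in LXRdKO. It had 462.1 and 451.2 CPM in LXRdKO libraries, 350.3 and 364.2 CPM in Ch25hKO libraries and 318.3 and 323.1 CPM in WT libraries. Its log2 fold change against WT was 0.51 ± 0.05 in LXRdKO (adjusted p = 7.29e-07), and 0.35 ± 0.05 in LXRdKO against Ch25hKO (adjusted p = 2.56e-05). In Ch25hKO against WT it was 0.16 (adjusted p = 0.0235), a call lost without Ch25hKO replicate 1 (adjusted p = 0.0911) or replicate 2 (adjusted p = 0.199). The zinc importer genes Slc39a6 and Slc39a8 fell in LXRdKO, by 0.45 and 0.48 on the log2 scale against WT and by 0.36 each against Ch25hKO. In Ch25hKO against WT, Slc39a6 was at -0.10 and Slc39a8 at -0.12, with adjusted p = 0.277 and 0.271.

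**Figure D3:**
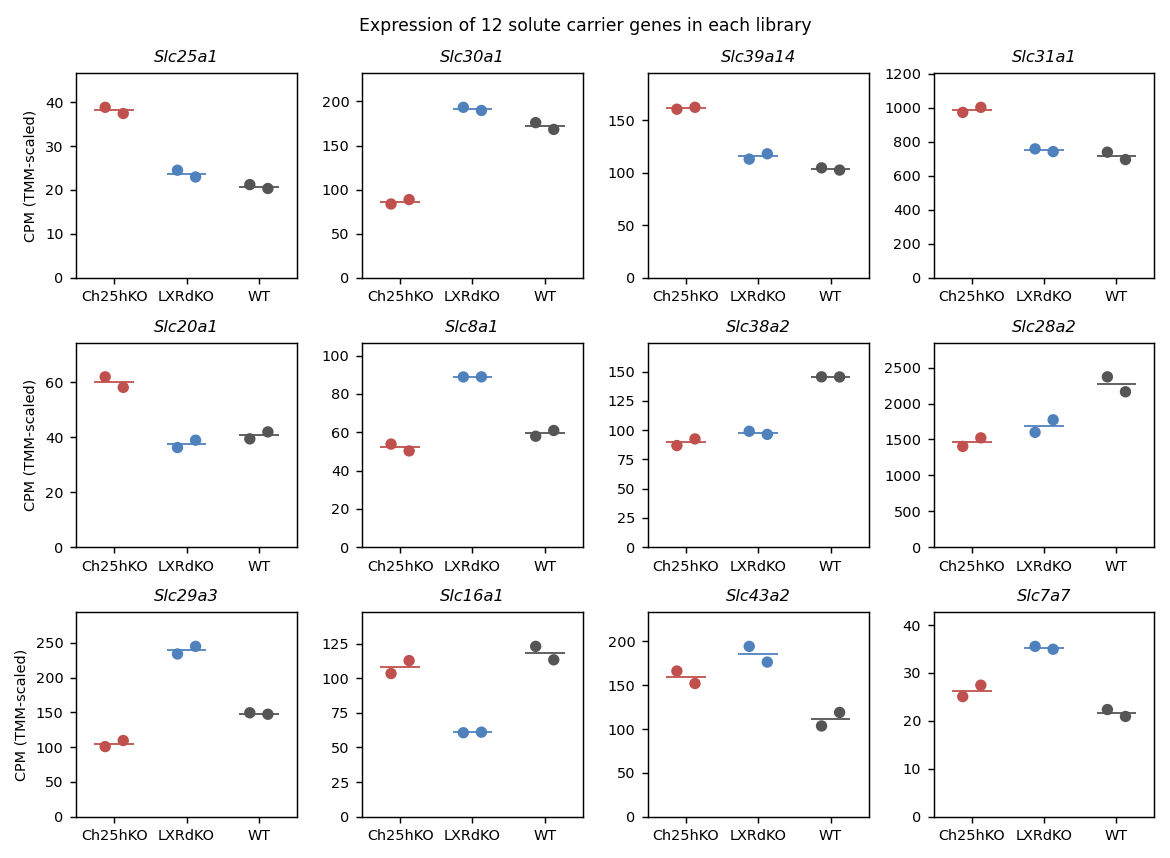
TMM-scaled CPM of 12 carriers in each library, with the axes from 0; points are libraries and short lines the means of 2 libraries, in the order Ch25hKO, LXRdKO, WT. Slc30a1 is low only in Ch25hKO (83.7 and 88.7 CPM), Slc16a1 only in LXRdKO (60.7 and 61.1 CPM), and Slc38a2 and Slc28a2 lie below WT in both knockouts.

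Among the mitochondrial carriers, the citrate carrier gene Slc25a1 had the largest increase of all 123 genes in Ch25hKO. Citrate exported by this carrier supplies the cytosolic acetyl-CoA from which fatty acids and sterols are built. It had 38.8 and 37.4 CPM in Ch25hKO libraries, 24.5 and 22.96 CPM in LXRdKO libraries and 21.2 and 20.3 CPM in WT libraries. Ch25hKO values were 1.84 times those of WT, a log2 fold change of 0.88 ± 0.06 (adjusted p = 8.64e-09), and LXRdKO was at -0.68 ± 0.06 against Ch25hKO (adjusted p = 9.93e-08). The LXRdKO increase over WT of 0.19 (adjusted p = 0.0331) was lost on leaving out any library but WT replicate 1 (adjusted p 0.054 to 0.245) and under 3 other alternatives.

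Slc25a1 lies on chromosome 16 (17925223 to 17928219, minus strand, GRCm38). Its promoter window is shown as that of the largest increase, beside those of Slc20a1 and Slc16a1, described further on, since all 3 hold the E-box CACGTG (capitals). The windows are from RefSeq, GRCm38.p6: Slc25a1 chr16:17928170-17928469 on the minus strand, Slc20a1 chr2:129198523-129198822 and Slc16a1 chr3:104638414-104638713 on the plus strand. Counting the start site as 0, the E-box begins at -239 in Slc25a1, at -175 and -22 in Slc20a1 and at -200 in Slc16a1. Slc20a1 has a second window, which holds none.
Slc25a1: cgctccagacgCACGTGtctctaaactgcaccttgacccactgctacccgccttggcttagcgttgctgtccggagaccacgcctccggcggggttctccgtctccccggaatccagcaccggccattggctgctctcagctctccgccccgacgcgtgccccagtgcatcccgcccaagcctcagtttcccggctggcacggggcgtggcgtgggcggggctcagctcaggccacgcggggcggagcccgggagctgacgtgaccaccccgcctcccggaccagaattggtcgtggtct
Slc20a1: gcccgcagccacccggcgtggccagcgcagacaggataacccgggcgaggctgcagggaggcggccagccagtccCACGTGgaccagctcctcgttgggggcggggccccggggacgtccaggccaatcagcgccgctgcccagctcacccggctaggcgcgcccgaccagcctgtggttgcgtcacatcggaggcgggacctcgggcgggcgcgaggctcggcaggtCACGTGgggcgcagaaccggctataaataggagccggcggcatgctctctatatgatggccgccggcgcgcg
Slc16a1: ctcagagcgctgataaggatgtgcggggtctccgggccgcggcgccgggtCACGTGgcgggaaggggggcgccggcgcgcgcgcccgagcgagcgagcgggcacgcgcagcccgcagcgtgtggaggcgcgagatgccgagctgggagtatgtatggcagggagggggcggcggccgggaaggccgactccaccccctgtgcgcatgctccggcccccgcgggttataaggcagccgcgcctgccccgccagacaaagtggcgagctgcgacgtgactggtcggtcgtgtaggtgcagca
Of the 123 carriers, 99 had a RefSeq window, and 21 of them (21.2%) held the E-box, beside 12.4% of genes of at least 5 CPM and 8.09% of all genes with a window. The sterol regulatory element TCACCCCAC was found in 1 carrier, Slc23a2 (1.01%), beside 0.714% of genes of at least 5 CPM and 0.614% of all genes. The amino acid response element TGATGNAAN was in 3 carriers (Slc50a1, Slc7a7 and Slc9a9), or 3.03%, beside 2.92% of genes of at least 5 CPM and 4.5% of all genes. A repeat of GAAA after a gap of 2 bases, the interferon-stimulated response element, was in 1 carrier (Slc25a22, 1.01%), beside 4.37% and 3.99%. No carrier window held the LXR element, AGGTCA repeated after a gap of 4 bases, which 4 genes in all held. Both strands were searched; these are matches of letters, not measured binding sites.

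Of 24 mitochondrial carriers, Ch25hKO had 11 higher and 6 lower than WT, and 8 were higher and 1 lower in LXRdKO than in WT. That is 70.8% and 37.5% of the class called, beside 48.3% and 39.7% of genes of at least 5 CPM. Of those genes, 25.2% were higher and 23% lower in Ch25hKO, and 23% were higher and 16.7% lower in LXRdKO. With DESeq2 the 11 became 6 and the 8 became 5, and with only the libraries compared the 11 became 7. The 11 became 6 without Ch25hKO replicate 1 and 7 without LXRdKO replicate 1 or 2, and the 8 became 5 without LXRdKO replicate 1 or 2. The 1 lower became 2 without WT replicate 1 or 2. LXRdKO against Ch25hKO gave 7 higher and 7 lower, 58.3% beside 48.1%, with 4 higher without LXRdKO replicate 1 and 4 lower without Ch25hKO replicate 1. The mitochondrial iron importers, the mitoferrins, went in opposite directions in Ch25hKO. Slc25a37 (mitoferrin-1) had 470.9 and 452.1 CPM in Ch25hKO, 332.0 and 325.7 CPM in LXRdKO and 323.3 and 364.6 CPM in WT libraries, a log2 fold change of 0.42 ± 0.06 in Ch25hKO (adjusted p = 1.91e-05). Slc25a28 (mitoferrin-2) had 15.5 and 16.1 CPM in Ch25hKO, 25.5 and 27.5 CPM in LXRdKO and 19.3 and 19.9 CPM in WT libraries. It fell by 0.31 on the log2 scale in Ch25hKO (adjusted p = 0.00213) and rose by 0.44 in LXRdKO (adjusted p = 8.53e-05), and LXRdKO exceeded Ch25hKO by 0.75 ± 0.07 (adjusted p = 1.28e-07).

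Further mitochondrial carriers fell in Ch25hKO: the aspartate and glutamate carrier gene Slc25a12 (-0.41), the glutamate carrier gene Slc25a22 (-0.35), the ATP-Mg and phosphate carrier gene Slc25a25 (-0.51) and the acylcarnitine carrier gene Slc25a20 (-0.27). Slc25a12, Slc25a22 and Slc25a25 were each higher in LXRdKO than in Ch25hKO, by 0.57, 0.54 and 0.52. Both knockouts were above WT for the dicarboxylate carrier gene Slc25a10 (0.43 in Ch25hKO and 0.55 in LXRdKO), the oxoglutarate carrier gene Slc25a11 (0.27 and 0.24) and the ADP/ATP exchanger gene Slc25a5 (0.25 and 0.32), all called under every alternative. For Slc25a5, 33.8% of the 50-base stretches also occur in another annotated gene, so its counts may depend on how shared reads were assigned. Slc25a16 rose in Ch25hKO (0.71) and stood at 0.23 in LXRdKO (adjusted p = 0.088). Slc25a45 rose in LXRdKO (0.47, adjusted p = 8.15e-05). The 1 gene lower in LXRdKO was Slc25a46, whose product sits in the outer membrane and acts in mitochondrial dynamics. It had 59.9 and 52.2 CPM in LXRdKO, 95.1 and 93.8 CPM in Ch25hKO and 98.1 and 89.9 CPM in WT libraries, a log2 fold change of -0.75 ± 0.07 against WT (adjusted p = 1.05e-07) and 0.01 for Ch25hKO against WT.

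Amino acid and peptide carriers were called in both directions, as were genes at large. Of 20, Ch25hKO had 8 higher and 7 lower than WT, and 7 were higher and 4 lower in LXRdKO than in WT. The called shares were 75% and 55%, beside 48.3% and 39.7% of genes of at least 5 CPM. Without Ch25hKO replicate 1 the first pair was 5 and 4, and the 7 became 4 without LXRdKO replicate 1 or 2. In LXRdKO against Ch25hKO, 7 were higher and 5 lower, 60% beside 48.1%. Slc38a1 and Slc38a2, which encode sodium-coupled neutral amino acid carriers of the plasma membrane, fell in both knockouts. Slc38a2 had 86.8 and 92.5 CPM in Ch25hKO, 99.0 and 96.4 CPM in LXRdKO and 145.5 and 145.4 CPM in WT libraries, with log2 fold changes of -0.70 ± 0.05 (adjusted p = 1.24e-08) and -0.57 ± 0.05 (adjusted p = 1.83e-07). Slc38a1 fell by 0.39 in Ch25hKO and by 0.57 in LXRdKO on the log2 scale (adjusted p = 8.69e-06 and 1.51e-07).

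Slc43a2, which carries branched-chain and aromatic amino acids by facilitated diffusion, rose in both knockouts. It had 166.1 and 151.9 CPM in Ch25hKO, 194.2 and 176.3 CPM in LXRdKO and 103.5 and 118.9 CPM in WT libraries, for log2 fold changes of 0.52 ± 0.07 and 0.74 ± 0.07 (adjusted p = 1.67e-05 and 4.82e-07). The aromatic amino acid carrier gene Slc16a10 rose mainly in Ch25hKO (261.8 and 263.8 CPM, with 207.7 and 201.6 CPM in LXRdKO and 185.1 and 179.6 CPM in WT libraries). Its log2 fold change was 0.53 ± 0.05 in Ch25hKO (adjusted p = 2.44e-07), and LXRdKO was at -0.36 ± 0.05 against Ch25hKO (adjusted p = 1.57e-05). In LXRdKO against WT it was 0.17 (adjusted p = 0.0179), and that call was lost without WT replicate 2, Ch25hKO replicate 1, or LXRdKO replicate 1 or 2 (adjusted p 0.0583 to 0.158). Slc38a6 rose in Ch25hKO (0.62, adjusted p = 0.00541), with WT libraries at 23.7 and 32.4 CPM and 35.5% of its exon stretches shared with another gene. The lysosomal amino acid exporter gene Slc36a1 rose in both knockouts (0.24 in Ch25hKO and 0.21 in LXRdKO).

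Slc3a2 encodes the heavy chain that SLC7 exchangers pair with at the cell surface. It had 304.3 and 323.5 CPM in Ch25hKO, 339.4 and 352.0 CPM in LXRdKO and 384.7 and 370.5 CPM in WT libraries, and it fell by 0.27 on the log2 scale in Ch25hKO (adjusted p = 0.000731). LXRdKO was at -0.13 (adjusted p = 0.0809), which passed the threshold without WT replicate 2 (adjusted p = 0.0147) and under 2 other alternatives. Among its partners are Slc7a7 and Slc7a6, which exchange cationic against neutral amino acids. Slc7a7 had 35.55 and 34.95 CPM in LXRdKO, 25.1 and 27.5 CPM in Ch25hKO and 22.4 and 20.9 CPM in WT libraries. Its log2 fold change was 0.70 ± 0.07 in LXRdKO (adjusted p = 2.84e-07) and 0.28 ± 0.07 in Ch25hKO (adjusted p = 0.00306, but 0.0728 without Ch25hKO replicate 2). Slc7a6 had 5.79 and 4.77 CPM in LXRdKO against 9.78 and 8.39 CPM in Ch25hKO libraries, a log2 difference of -0.78 ± 0.12 (adjusted p = 3.1e-05), with WT between them at 6.78 and 6.72 CPM. Against WT, Slc7a6 was higher in Ch25hKO (0.43, adjusted p = 0.00557, but 0.128 without Ch25hKO replicate 1). It was lower in LXRdKO (-0.35, adjusted p = 0.0316), a call lost without WT replicate 1 (adjusted p = 0.0501), without LXRdKO replicate 2 (adjusted p = 0.3) and with DESeq2 (adjusted p = 0.095). The arginine importer gene Slc7a1 fell in LXRdKO, by 0.45 on the log2 scale against WT and by 0.61 against Ch25hKO (adjusted p = 0.000656 and 1.67e-05).

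The osmolyte carriers of the SLC6 family were higher in LXRdKO than in Ch25hKO. Slc6a6, for taurine, had 1677 and 1790 CPM in LXRdKO, 1403 and 1448 CPM in Ch25hKO and 1686 and 1568 CPM in WT libraries, a log2 difference of 0.28 ± 0.06 in LXRdKO against Ch25hKO (adjusted p = 0.000987). Ch25hKO against WT was -0.19 (adjusted p = 0.0167), and that call was lost without WT replicate 1, Ch25hKO replicate 1 or Ch25hKO replicate 2 (adjusted p 0.0589 to 0.143). Slc6a12, for betaine, rose in LXRdKO by 0.47 against WT and by 0.31 against Ch25hKO on the log2 scale (adjusted p = 1.2e-05 and 0.000567). The creatine carrier gene Slc6a8 fell in Ch25hKO (-0.27, adjusted p = 0.00071). Slc15a3 had 714.9 and 772.2 CPM in Ch25hKO, 799.8 and 831.4 CPM in LXRdKO and 885.3 and 835.3 CPM in WT libraries; its decrease in Ch25hKO of 0.21 on the log2 scale (adjusted p = 0.00778) was lost without Ch25hKO replicate 1 (adjusted p = 0.146), and 28.1% of its exon sequence overlaps Tmem132a.

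**Figure D4:**
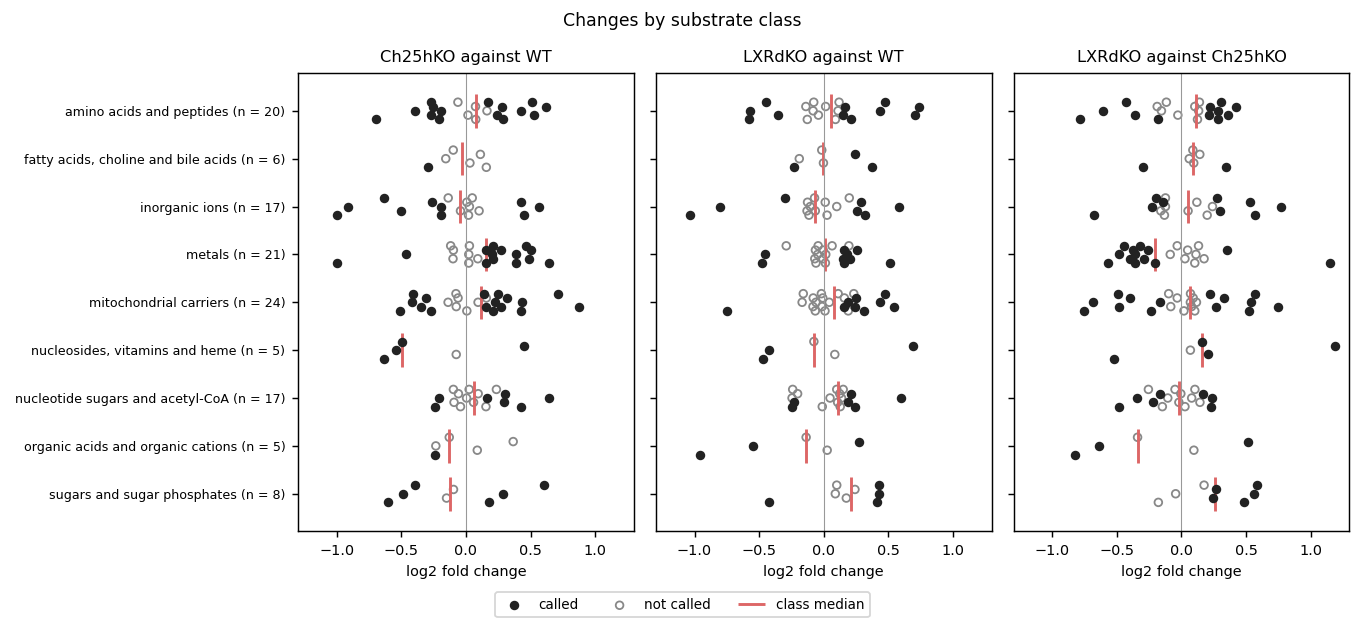
Log2 fold changes of the 123 carriers by substrate class in 3 comparisons; each point is 1 gene, filled where the adjusted p was under 0.05, and the vertical bars are class medians. The metal class has its median at 0.16 in Ch25hKO against WT and at -0.21 in LXRdKO against Ch25hKO, with Slc30a1 on the opposite side each time. Both of these comparisons use the same Ch25hKO libraries.

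Inorganic ion carriers included genes of low level that were lower in both knockouts and carriers of phosphate, calcium and chloride that separated the knockouts. Of 17, Ch25hKO had 3 higher and 7 lower than WT, and 4 were higher and 3 lower in LXRdKO than in WT, or 58.8% and 41.2% called beside 48.3% and 39.7% of genes of at least 5 CPM. In LXRdKO against Ch25hKO, 5 were higher and 4 lower, 52.9% beside 48.1%; without LXRdKO replicate 2 these were 3 and 2, and 1 was lower without Ch25hKO replicate 1 or LXRdKO replicate 1. Slc12a9, a relative of the cation and chloride cotransporters, had 68.0 and 72.0 CPM in Ch25hKO, 97.5 and 104.2 CPM in LXRdKO and 107.2 and 90.9 CPM in WT libraries. It was at -0.50 ± 0.07 on the log2 scale in Ch25hKO against WT (adjusted p = 2.1e-05) and at 0.53 ± 0.07 in LXRdKO against Ch25hKO (adjusted p = 1.03e-05).

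The phosphate importer gene Slc20a1 had 61.9 and 58.1 CPM in Ch25hKO, 36.2 and 38.9 CPM in LXRdKO and 39.4 and 41.9 CPM in WT libraries. Only the Ch25hKO libraries were high, at a log2 fold change of 0.56 ± 0.06 against WT (adjusted p = 9.04e-07), and LXRdKO was at -0.68 ± 0.06 against Ch25hKO (adjusted p = 7.33e-08). The sodium and calcium exchanger gene Slc8a1 had 88.9 and 88.9 CPM in LXRdKO, 53.8 and 50.3 CPM in Ch25hKO and 57.9 and 60.9 CPM in WT libraries. It rose by 0.58 ± 0.06 on the log2 scale in LXRdKO against WT (adjusted p = 3.01e-07), while its decrease in Ch25hKO of 0.19 (adjusted p = 0.0114) was lost without Ch25hKO replicate 2 (adjusted p = 0.163). The bicarbonate carrier gene Slc4a7 rose in both knockouts (0.43 in Ch25hKO and 0.29 in LXRdKO).

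In both knockouts, 2 genes of low level were lower. The sulfate carrier gene Slc26a11 had 5.21 and 5.51 CPM in Ch25hKO, 6.34 and 5.97 CPM in LXRdKO and 11.8 and 9.58 CPM in WT libraries, for log2 fold changes of -0.999 ± 0.11 and -0.80 ± 0.11 (adjusted p = 1.94e-06 and 2.74e-05). Slc24a3, a potassium-dependent sodium and calcium exchanger gene, had 3.99 and 4.22 CPM in Ch25hKO, 3.26 and 4.28 CPM in LXRdKO and 8.76 and 6.70 CPM in WT libraries. Its log2 fold changes were -0.91 ± 0.14 and -1.04 ± 0.15 (adjusted p = 7.24e-05 and 3.25e-05). WT replicate 1 was the highest library for both genes, and both calls held without it. Before TMM scaling Slc24a3 averaged 4.22 CPM in Ch25hKO, 3.66 CPM in LXRdKO and 7.69 CPM in WT libraries, so it passed the 5 CPM limit only through WT, the group in which it is high, and its decrease is given as a description.

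The nucleoside, vitamin and heme carriers are few but hold the largest difference between the knockouts. Slc29a3 encodes the equilibrative nucleoside carrier of lysosomes. It had 233.9 and 244.8 CPM in LXRdKO, 100.8 and 109.5 CPM in Ch25hKO and 149.4 and 147.3 CPM in WT libraries, so that no group overlapped another. LXRdKO was 2.28 times Ch25hKO, a log2 difference of 1.19 ± 0.06 (adjusted p = 1.25e-11). Against WT, Ch25hKO was at -0.50 ± 0.06 (adjusted p = 1.42e-06) and LXRdKO at 0.69 ± 0.05 (adjusted p = 3e-08), and all 3 calls held under every alternative. The gene lies on chromosome 10 (60712072 to 60752794, minus strand, GRCm38).

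Slc28a2, the most abundant carrier per length, had 1403 and 1522 CPM in Ch25hKO, 1599 and 1773 CPM in LXRdKO and 2371 and 2163 CPM in WT libraries. It fell in both knockouts, by 0.63 ± 0.07 and 0.43 ± 0.07 on the log2 scale (adjusted p = 8.63e-07 and 9.26e-05). The purine nucleobase carrier gene Slc43a3 was lower as well, by log2 fold changes of -0.54 in Ch25hKO and -0.47 in LXRdKO, but it too passed the 5 CPM limit only through WT, with means before TMM scaling of 4.88 CPM in Ch25hKO, 4.84 CPM in LXRdKO and 6.89 CPM in WT libraries. Slc48a1, which moves heme out of the phagolysosome, had 176.9 and 170.6 CPM in Ch25hKO, 120.5 and 121.0 CPM in LXRdKO and 123.4 and 131.1 CPM in WT libraries. It rose by 0.45 ± 0.05 on the log2 scale in Ch25hKO (adjusted p = 2.24e-06) and was at -0.08 in LXRdKO (adjusted p = 0.294). The ascorbate carrier gene Slc23a2 was at -0.08 in Ch25hKO and 0.09 in LXRdKO (adjusted p = 0.277 and 0.23).

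Among the carriers of organic acids and cations, the monocarboxylate carrier gene Slc16a1 stood out in LXRdKO. This carrier moves lactate, pyruvate and ketone bodies with a proton. It had 60.7 and 61.1 CPM in LXRdKO, 103.4 and 112.7 CPM in Ch25hKO and 123.0 and 113.3 CPM in WT libraries. LXRdKO fell by 0.96 ± 0.06 on the log2 scale against WT (adjusted p = 1.32e-09) and by 0.83 ± 0.06 against Ch25hKO (adjusted p = 4.05e-09). Ch25hKO against WT was -0.13 (adjusted p = 0.0827), which passed the threshold without WT replicate 2 (adjusted p = 0.00232). The gene lies on chromosome 3 (104638668 to 104658462, plus strand, GRCm38), and its promoter window stands above with that of Slc25a1. The dicarboxylate carrier gene Slc13a3 was lower in LXRdKO than in Ch25hKO (-0.64, adjusted p = 0.00118), and passed the 5 CPM limit through the other genotypes, with means before TMM scaling of 3.99 CPM in LXRdKO, 6.57 CPM in Ch25hKO and 5.97 CPM in WT libraries. The lysosomal sialic acid exporter gene Slc17a5 had 31.04 and 28.23 CPM in LXRdKO, 20.3 and 21.2 CPM in Ch25hKO and 24.9 and 24.2 CPM in WT libraries, a log2 difference of 0.51 ± 0.07 in LXRdKO against Ch25hKO (adjusted p = 8.11e-06). The vesicular monoamine carrier gene Slc18a2 was not called, with 9.09 and 6.49 CPM in Ch25hKO, 5.93 and 6.38 CPM in LXRdKO and 4.55 and 7.55 CPM in WT libraries (adjusted p = 0.264 in Ch25hKO and 0.947 in LXRdKO against WT). Without WT replicate 2 it was called higher in both, at 0.76 in Ch25hKO and 0.42 in LXRdKO (adjusted p = 0.000105 and 0.0376). LXRdKO against Ch25hKO was at -0.34 (adjusted p = 0.311) and was called lower under 5 alternatives (adjusted p between 0.0186 and 0.041).

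Of 8 sugar and sugar phosphate carriers, 5 were higher in LXRdKO than in Ch25hKO (Slc2a6, Slc2a9, Slc37a2, Slc37a3 and Slc45a4). Slc45a4 passed the 5 CPM limit only through LXRdKO, the group in which it is high, and its increase is given as a description. Its means before TMM scaling were 4.57 CPM in Ch25hKO, 6.398 CPM in LXRdKO and 4.907 CPM in WT libraries. The call of the urate carrier gene Slc2a9 was lost without either Ch25hKO library or either LXRdKO library (adjusted p 0.0779 to 0.163). In LXRdKO against Ch25hKO, genes of at least 5 CPM were called higher in 25.8% and lower in 22.2%, and all tested genes in 19.3% and 18.6%. The hexose carrier gene Slc2a6 had 445.6 and 458.1 CPM in LXRdKO, 373.4 and 389.0 CPM in Ch25hKO and 332.8 and 339.6 CPM in WT libraries. It rose by 0.43 ± 0.05 on the log2 scale in LXRdKO against WT (adjusted p = 6.28e-06). Its increase in Ch25hKO of 0.18 (adjusted p = 0.0102) was lost without Ch25hKO replicate 1 (adjusted p = 0.0519) or replicate 2 (adjusted p = 0.126). The sugar phosphate exchanger gene Slc37a2, known as a macrophage gene of the endoplasmic reticulum, had 33.4 and 33.5 CPM in LXRdKO, 21.5 and 23.1 CPM in Ch25hKO and 29.42 and 32.97 CPM in WT libraries. It fell by 0.48 ± 0.07 in Ch25hKO (adjusted p = 2.15e-05), as did its relative Slc37a3 (-0.40, adjusted p = 0.000261), and both were higher in LXRdKO than in Ch25hKO (0.59 and 0.49). The glucose 6-phosphate carrier gene Slc37a4 rose in Ch25hKO instead (0.60, adjusted p = 0.000579). It was also called higher in LXRdKO than in WT, a call that depended on LXRdKO replicate 1 (log2 fold change 0.24 without it). The myo-inositol carrier gene Slc5a3 fell in Ch25hKO (-0.60, adjusted p = 0.00325), with WT libraries apart at 19.99 and 28.06 CPM.

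Nucleotide sugar carriers of the Golgi and endoplasmic reticulum were called at shares near those of genes at large. Of 17, counted with the acetyl-CoA carrier gene Slc33a1, Ch25hKO had 5 higher and 2 lower than WT, and 4 were higher and 2 lower in LXRdKO than in WT, or 41.2% and 35.3% called beside 48.3% and 39.7% of genes of at least 5 CPM. The 5 became 3 without replicate 1 of Ch25hKO and without either LXRdKO library, and the first 2 became 0 without WT replicate 1 and 1 without each knockout library. The 4 became 2 without Ch25hKO replicate 1 or LXRdKO replicate 1 and 1 without LXRdKO replicate 2. The second 2 became 0 without LXRdKO replicate 2 and 1 without each of the other knockout libraries. The GDP-fucose carrier gene Slc35c1 was clear of these limits. It had 30.7 and 34.5 CPM in Ch25hKO, 32.1 and 30.8 CPM in LXRdKO and 20.2 and 21.5 CPM in WT libraries, for log2 fold changes of 0.65 ± 0.07 and 0.60 ± 0.07 (adjusted p = 9.98e-07 and 3.81e-06). Slc35b4, which carries UDP-xylose and UDP-N-acetylglucosamine, rose in Ch25hKO (0.43, adjusted p = 2.45e-05). It was also called higher in LXRdKO than in WT, but not with DESeq2 (adjusted p = 0.0715). That call was lost as well without WT replicate 1, LXRdKO replicate 1 or LXRdKO replicate 2 (log2 fold changes 0.169, 0.227 and 0.193). The UDP-galactose carrier gene Slc35a2 was lower in LXRdKO than in Ch25hKO (-0.48, adjusted p = 0.000546). The UDP-N-acetylglucosamine carrier gene Slc35a3, the highest of the class by CPM, was at 0.06 in Ch25hKO (adjusted p = 0.416) and 0.14 in LXRdKO (adjusted p = 0.0603, but 0.0193 without WT replicate 1).

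Of 6 carriers of fatty acids, choline and bile acids, those called in either knockout against WT were Slc44a1, Slc44a2 and Slc10a3. Slc10a3 was higher in LXRdKO (0.25, adjusted p = 0.0123), a call lost with DESeq2 (adjusted p = 0.0688) and without LXRdKO replicate 1 (adjusted p = 0.101). The choline carrier gene Slc44a1 had 163.9 and 166.7 CPM in LXRdKO, 129.9 and 130.6 CPM in Ch25hKO and 133.3 and 121.7 CPM in WT libraries. It rose in LXRdKO by 0.38 ± 0.05 against WT and by 0.34 ± 0.05 against Ch25hKO on the log2 scale (adjusted p = 3.87e-05 and 5.55e-05). Its relative Slc44a2 fell in Ch25hKO by 0.29 (adjusted p = 0.000488), and its decrease of 0.23 in LXRdKO (adjusted p = 0.00411) was lost without LXRdKO replicate 1 (adjusted p = 0.116). The fatty acid transport protein gene Slc27a1 was at -0.10 in Ch25hKO and -0.002 in LXRdKO (adjusted p = 0.151 and 0.98), and Slc27a4 at 0.11 and -0.19 (adjusted p = 0.237 and 0.0591).

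Carriers and subunits outside the numbered symbols were read beside these. Of 40 such genes listed, 35 were in the table and 28 passed the filter. In Ch25hKO against WT 8 were higher and 6 lower, and in LXRdKO against WT 9 were higher and 5 lower, 50% of the 28 each time. Beside this stand 39.3% and 31.8% of all tested genes, and 48.3% and 39.7% of those at 5 CPM or more. Most of the 28 lay above 5 CPM. The organic anion carrier gene Slco4a1 had 15.5 and 16.8 CPM in Ch25hKO, 11.8 and 12.7 CPM in LXRdKO and 24.6 and 25.6 CPM in WT libraries, and fell by 0.64 ± 0.07 and 1.04 ± 0.08 on the log2 scale (adjusted p = 1.94e-06 and 1.06e-08). The mitochondrial serine carrier gene Sfxn1 rose in Ch25hKO (0.59, adjusted p = 0.000178) and was at 0.04 in LXRdKO (adjusted p = 0.814). Bsg, the chaperone that brings monocarboxylate carriers to the surface, rose in Ch25hKO (0.31, adjusted p = 8.42e-05). Unc93b1, which escorts Toll-like receptors to endosomes, rose in LXRdKO (0.39, adjusted p = 1.88e-05).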

How the data were processed

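RNA-seq was analysed from 6 libraries of LPS-stimulated bone marrow-derived macrophages, 2 for each of Ch25hKO, LXRdKO and WT, grouped by sample title. The authors deposited raw read counts per gene symbol, with no normalization. The submitters' processing notes list CASAVA, STAR 2.3.0, HTSeq and mm10. The sources used here give no annotation, counting mode or strand setting, so reads of overlapping or near-identical genes may count for either. Libraries were built with Ovation and Encore kits, per the labels' protocols. Nothing says that libraries of a genotype came from separate mice or cultures, so the p-values cover the spread between these libraries alone, which may be technical.

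Genes were selected with edgeR 4.0.16 (R 4.3.3) filterByExpr, which kept 12923 of 23337 symbols and 99.98% of counts; 5683 symbols had no count. TMM scaling and a robust quasi-likelihood fit of all 6 libraries, with 1 mean per genotype, left 3 residual degrees of freedom. The common biological coefficient of variation was 4.41%. Adjustment was by Benjamini-Hochberg over all tested genes, and the standard error was the log2 fold change divided by the square root of F. The fit was tested on simulated data.

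Alternatives were RLE and upper-quartile scaling, DESeq2 1.42.0, limma-voom (limma 3.58.1), no filter, at least 5 CPM in 2 libraries, only the libraries compared, a replicate block, each library left out in turn, and a crossed replicate block added after the data were seen. A group left with 1 library was assumed to vary like the others. Exon lengths, overlaps and positions come from GENCODE on GRCm38, in which all 123 genes matched (Slc24a6 by its current name Slc8b1), and promoters from RefSeq on GRCm38.p6.

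The genes, the 9 substrate classes, the list of 40 related genes and the naming rule were chosen with earlier results of these data known. The rule named the 12 largest called increases and decreases of each knockout against WT and the 6 largest of LXRdKO against Ch25hKO, with libraries that did not overlap, the highest and lowest-p genes of each class, and 9 genes by name. Genes outside the rule that are named here (among them Slc48a1, Slc25a12, Slc6a8, Slc37a3, Slc4a7, Slc35b4 and Slc36a1) were chosen after their values were seen. A few genes named by this rule are not reported here.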

Additional observations from a re-analysis of the deposited data

How the results depend on the processing

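No called carrier changed sign under any of the 15 alternatives. In the 2205 values of the 49 named genes under these, 2077 kept direction and side of the threshold, 100 lost the threshold and 28 gained it. The number of carriers higher in LXRdKO than in WT was 37, but 23 with DESeq2; the cause was not tested. By class, the carriers higher in LXRdKO than in WT were 2 for metals (7 in the reported fit), 5 for mitochondrial carriers (8) and 1 for nucleotide sugars (4) with DESeq2. Those higher in Ch25hKO than in WT were 6 for mitochondrial carriers (11) and 3 for nucleotide sugars (5). A fit of only the libraries compared gave 2 metal carriers higher in LXRdKO, and 7 mitochondrial and 3 nucleotide sugar carriers higher in Ch25hKO. With at least 5 CPM in 2 libraries, LXRdKO had 3 metal carriers higher, and 5 ion carriers (3) and 4 nucleotide sugar carriers (2) lower. With 1 library left out, the carriers higher in Ch25hKO than in WT numbered 28 to 40 and those lower 23 to 34. In LXRdKO against WT these were 20 to 36 higher and 12 to 23 lower, and in LXRdKO against Ch25hKO 24 to 41 higher and 25 to 39 lower. Such a fit has fewer samples. Replicate numbers did not pair the libraries: same-numbered deviations correlated at -0.105 between Ch25hKO and WT, -0.013 between LXRdKO and WT and 0.025 between LXRdKO and Ch25hKO. With the replicate block, 38 were higher and 32 lower in Ch25hKO against WT, 33 and 19 in LXRdKO against WT, and 34 and 34 in LXRdKO against Ch25hKO. With crossed pairing the counts were 45 and 33, 38 and 22, and 34 and 36. Replicates differed by more than counting error: the chi-square divided by its degrees of freedom was 4.95 in Ch25hKO, 4.13 in LXRdKO and 11.7 in WT. Precision rests on 2 libraries per genotype.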

Other observations

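The metallothionein genes Mt1 and Mt2, whose products bind zinc and copper, were looked up after the values of Slc30a1 were seen. Mt1 had 104.7 and 109.1 CPM in Ch25hKO, 76.4 and 70.0 CPM in LXRdKO and 74.5 and 78.8 CPM in WT libraries, a log2 fold change of 0.48 ± 0.06 in Ch25hKO (adjusted p = 3.06e-06). Mt2 had 243.1 and 252.8 CPM in Ch25hKO, 148.6 and 150.0 CPM in LXRdKO and 156.2 and 169.0 CPM in WT libraries, with 0.61 ± 0.05 in Ch25hKO (adjusted p = 8.78e-08). In LXRdKO against WT they were at -0.07 and -0.12 (adjusted p = 0.401 and 0.0948). Metallothioneins and Slc30a1 are both known as targets of the metal-responsive factor MTF-1. In Ch25hKO the metallothionein genes and Slc30a1 differed from WT in opposite directions. Any part of MTF-1 in these differences was not tested.

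Of the 216 solute carrier symbols under 5 CPM, 83 passed the low-count filter. Against WT, 25.3% of the 83 were called in Ch25hKO and 12% in LXRdKO, beside 39.3% and 31.8% of all tested genes. All tested genes include those of at least 5 CPM, of which 48.3% and 39.7% were called, so these shares belong to unlike levels. Chosen after its values were seen, the iodide and chloride exchanger gene Slc26a4 had 0.83 and 0.50 CPM in Ch25hKO, 0.55 and 0.43 CPM in LXRdKO and 2.16 and 2.07 CPM in WT libraries. Slc16a6, just under the limit, had 7.22 and 7.45 CPM in Ch25hKO, 3.53 and 3.12 CPM in LXRdKO and 3.17 and 4.35 CPM in WT libraries, a log2 fold change of 0.96 ± 0.14 in Ch25hKO (adjusted p = 2.42e-05). Slc7a5, the light chain best known to pair with Slc3a2, had 90 and 108 counts in Ch25hKO, 119 and 104 in LXRdKO and 136 and 130 in WT libraries, and so lay far under the limit.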
